A study of Homo sapiens with 24 samples.

Results

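FKBP5 and 9 further chaperones and co-chaperones of steroid receptors were followed across 8 groups of prostate cancer cells. The 10 genes were taken by name: FKBP5, FKBP4, HSP90AA1, HSP90AB1, PTGES3, ST13, STIP1, HSPA8, DNAJA1 and BAG1. They had 29 probe sets on the array, and 25 of these listed 1 of the genes alone, so that 9 of the 10 genes could be measured by name among 19775 genes with such a probe set. All 4 probe sets of HSPA8 listed 3 genes, HSPA8 and the small nucleolar RNA genes SNORD14C and SNORD14D that lie inside it, and are given by probe set below. VCaP and LNCaP are human prostate cancer lines that respond to androgen. VCaP cells, which carry a fusion of TMPRSS2 with the ETS factor ERG, were transfected with siControl or with siRNA to ERG (siERG), and LNCaP cells, in which the ETS factor ETV1 is rearranged, with shControl or with shRNA to ETV1 (shETV1). From 24 h after transfection every culture was kept without hormone for 2 days and then exposed for 16 h to ethanol (EtOH, the vehicle) or to 10 nM dihydrotestosterone (DHT), so no group was left in full serum and every group carried an RNA interference reagent. Each group had 3 biological replicates, A, B and C, on 1 Affymetrix HG-U133 Plus 2.0 array each. Each knockdown was made in 1 line only, and the labels name 1 reagent per target.

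Steroid receptors reach their hormone-binding state by passing through a chaperone cycle. Hsp70 (HSPA8 is its constitutive cytosolic form) and its J-domain partner DNAJA1 first hold the receptor, ST13 (Hip) stabilises that complex and STIP1 (Hop) bridges it to Hsp90, whose cytosolic forms are HSP90AA1 (inducible) and HSP90AB1 (constitutive). PTGES3 (p23) closes the mature Hsp90 complex, in which an immunophilin with a tetratricopeptide domain, FKBP5 (FKBP51) or FKBP4 (FKBP52), occupies the same docking site. BAG1 is a nucleotide exchange factor of Hsp70, and a long form of it binds the androgen receptor. FKBP5 is a widely used target gene of androgen, glucocorticoid and progesterone receptors, and its known hormone response elements lie in its introns and far upstream.

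The targeted genes were measured first. ERG intensity in VCaP fell by 0.82 ± 0.06 log2 units after siERG in EtOH and by 1.09 ± 0.06 in DHT, and ETV1 intensity in LNCaP fell by 0.61 ± 0.07 and 0.62 ± 0.07 after shETV1. All 5 luminal genes measured (KLK3, KLK2, TMPRSS2, KRT8 and KRT18) lay above the array median on all 3 arrays in 7 of the groups, and 4 of them in LNCaP shETV1 with EtOH, while 0 of 3 basal keratins (KRT5, KRT14 and KRT15) did so in any group. Of 12 genes of fibroblasts, endothelium and leukocytes, 1 to 4 did so. The summed intensity of those 12 genes was 975 to 1159 in VCaP siControl and 779 to 889 in siERG, and in LNCaP 871 to 942 with EtOH and 638 to 717 with DHT. Single genes carried these sums and the list did not move as one. After siERG with EtOH LYZ changed by -1.22 ± 0.14 (adjusted p = 4.42e-04) while LUM rose by 0.46 ± 0.10 (0.0124), and in LNCaP shControl with DHT the called genes were VWF (-1.07 ± 0.09, 2.53e-06) and COL1A1 (-0.42 ± 0.05, 2.46e-05). The part of these genes in the results below was not tested. None of the marker probe sets was at 0. The median intensity was 47.6 to 53.2 on VCaP arrays and 42.7 to 44.8 on LNCaP arrays, and the lowest values also differed (0.05 in VCaP, 0.5 in LNCaP), so levels were compared only inside a line, and between the lines only the sizes of changes. In bulk RNA a change per cell cannot be told apart from a change in which cells are present.

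FKBP5 lies on chromosome 6 from 35573590 to 35728583 in the RefSeq annotation of GRCh38.p14. Windows of 250 bases upstream of annotated starts were available for 8 of the 10 genes, 13 windows in all. Both windows of FKBP5, the gene with the widest response, are shown. Of 2 windows of HSP90AA1 and 3 of HSP90AB1, the 1 of each that holds a heat shock element is shown, and the others, with 0 matches to the element or to AGAACA, are left out. Capitals mark a match on either strand to the heat shock element GAANNTTCNNGAA or to the single arm of the androgen receptor motif, AGAACA.
FKBP5, chr6:35728584-35728833, minus strand: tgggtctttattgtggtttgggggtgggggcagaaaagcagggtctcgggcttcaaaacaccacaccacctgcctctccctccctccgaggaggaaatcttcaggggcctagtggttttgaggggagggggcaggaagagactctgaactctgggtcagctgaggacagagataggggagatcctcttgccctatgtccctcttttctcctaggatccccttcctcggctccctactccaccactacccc
FKBP5, chr6:35688916-35689165, minus strand: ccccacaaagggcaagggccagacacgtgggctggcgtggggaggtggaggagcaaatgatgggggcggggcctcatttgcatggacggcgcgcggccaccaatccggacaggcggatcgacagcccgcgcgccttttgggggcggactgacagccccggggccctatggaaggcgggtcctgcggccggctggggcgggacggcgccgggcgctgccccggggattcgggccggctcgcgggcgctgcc
HSP90AA1, chr14:102087045-102087294, minus strand: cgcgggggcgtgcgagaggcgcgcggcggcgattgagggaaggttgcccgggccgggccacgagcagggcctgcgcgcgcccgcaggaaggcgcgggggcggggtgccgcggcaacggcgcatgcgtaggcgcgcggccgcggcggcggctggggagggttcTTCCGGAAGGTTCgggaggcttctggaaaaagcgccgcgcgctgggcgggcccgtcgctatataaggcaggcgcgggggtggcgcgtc
HSP90AB1, chr6:44247693-44247942, plus strand: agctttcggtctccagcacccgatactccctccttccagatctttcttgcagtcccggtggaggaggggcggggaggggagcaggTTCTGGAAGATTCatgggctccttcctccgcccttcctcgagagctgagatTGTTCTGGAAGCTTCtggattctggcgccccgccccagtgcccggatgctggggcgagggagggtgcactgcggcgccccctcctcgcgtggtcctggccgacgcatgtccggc

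The full androgen receptor palindrome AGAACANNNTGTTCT matched 0 of the 13 windows, against 0.00285% of 35116 windows of the same length. A palindrome this rare would be missing from 13 windows of almost any genes, so the 0 says nothing about these genes. The single arm AGAACA matched 1 of the 13, in HSP90AB1, against 12.4% of all windows, and there it overlaps a heat shock element. The heat shock element matched 3 of the 13 windows, against 0.441% of all. These were the HSP90AA1 window shown, with a match that begins 88 bases before the start, the HSP90AB1 window shown, with matches at 165 and 112 bases, and a window of HSPA8, with matches at 230 and 55 bases. The ETS core GGAA matched all 13 windows and 92.7% of all windows. These are matches of letters only, and no binding was measured.

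FKBP5 rose with DHT in both lines, with and without the knockdown, and was among the genes with the largest rises. The values that follow are intensities of its brightest probe set, 224840_at. In VCaP siControl the EtOH arrays read 1693, 1653 and 1543 and the DHT arrays 6282, 6189 and 5915. In VCaP siERG the EtOH arrays read 1752, 2066 and 1894 and the DHT arrays 6359, 6469 and 5935. The DHT arrays of VCaP were thus alike with either siRNA and far from overlapping those with EtOH. In LNCaP shControl the EtOH arrays read 989, 917 and 795 and the DHT arrays 10809, 10477 and 10147. In LNCaP shETV1 the EtOH arrays read 778, 808 and 809 and the DHT arrays 9478, 9328 and 9126. Every DHT array of LNCaP was above every EtOH array of the same line, and those of shETV1 lay below those of shControl.

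**Figure D1:**
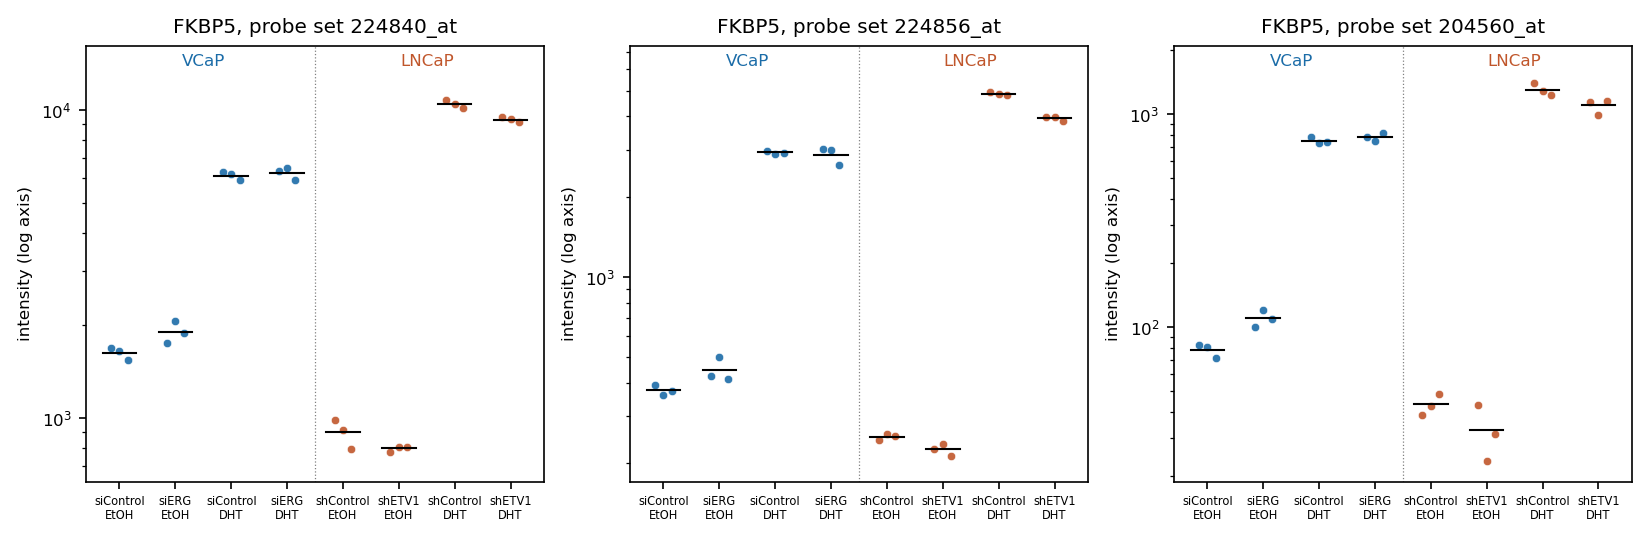
Intensity (log axis) of the 3 FKBP5 probe sets on each of the 24 arrays, by group, with VCaP in blue and LNCaP in orange. Points are arrays and lines are group means of 3 arrays. In all 3 panels the DHT arrays stand far above the EtOH arrays of the same line.

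On the log2 scale used for all tests, log2(intensity + 16), the rise of FKBP5 was 1.90 ± 0.07 (SE, limma, adjusted p = 1.30e-08, 3.74-fold) in VCaP siControl and 1.71 ± 0.07 (adjusted p = 1.95e-08, 3.27-fold) in VCaP siERG. In LNCaP it was 3.52 ± 0.07 with shControl (adjusted p = 4.68e-11, 11.5-fold) and 3.52 ± 0.07 with shETV1 (adjusted p = 4.30e-11, 11.5-fold). Ordered by size of change, FKBP5 was number 8 from the top of 12840 genes tested in VCaP siControl and number 13 in siERG, and number 8 and number 9 of 12823 in LNCaP shControl and shETV1. The other probe sets of FKBP5 gave larger changes. Probe set 224856_at rose by 2.92 ± 0.08 and 2.65 ± 0.08 in VCaP siControl and siERG and by 4.19 ± 0.05 and 4.04 ± 0.05 in LNCaP shControl and shETV1. Probe set 204560_at, the dimmest, rose by 3.02 ± 0.07 and 2.67 ± 0.07 in VCaP and by 4.48 ± 0.13 and 4.53 ± 0.13 in LNCaP. Its EtOH arrays in LNCaP read only 23.5 to 48.7, a range in which the added 16 most compresses a change.

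The 5 genes whose intensities followed FKBP5 most closely, by the lower of the Pearson correlations over the 12 arrays of each line, were NCAPD3, LIFR, TIPARP, CREB3L2 and FZD5. NCAPD3, a condensin subunit, had r = 0.999 in VCaP and 0.998 in LNCaP and rose with DHT by 1.78 ± 0.07 in VCaP siControl and 3.35 ± 0.05 in LNCaP shControl. LIFR, the leukaemia inhibitory factor receptor, had r = 0.996 and 0.999 and rose by 1.69 ± 0.06 and 3.18 ± 0.05. The other 3 had lower correlations of 0.993 to 0.994. These correlations span the EtOH and DHT arrays of a line and are a description only.

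The other 8 genes moved with DHT by much less than FKBP5, and not the same way in both lines. In VCaP siControl 4 of the 9 genes rose (FKBP5, HSP90AA1, STIP1 and DNAJA1) and 2 fell (ST13 and BAG1), where 45.0% of all genes tested were called, 19.6% risen and 25.4% fallen. In VCaP siERG 5 of 9 rose (the same 4 and HSP90AB1) and BAG1 fell, where 45.3% of all genes were called, 20.1% risen and 25.2% fallen. In LNCaP shControl 4 of 9 rose (FKBP5, PTGES3, ST13 and STIP1) and 0 fell, where 40.8% of all genes were called, 18.6% risen and 22.3% fallen. In LNCaP shETV1 4 of 9 rose (FKBP5, PTGES3, DNAJA1 and BAG1) and 0 fell, where 37.9% were called, 18.8% risen and 19.0% fallen. A called change was thus common among all genes, and 9 genes are too few to set these counts apart from those shares. The DHT and EtOH arrays did not overlap for 6, 5, 5 and 7 of the 9 genes in these 4 comparisons, in that order, beside 56.9%, 52.1%, 49.8% and 50.3% of all genes. Of all probe sets tested one by one, 39.1%, 38.5%, 36.5% and 33.6% were called. The median change of the 9 genes was 0.02 in VCaP siControl, 0.17 in siERG, 0.13 in LNCaP shControl and 0.11 in shETV1, beside medians over all genes tested of -0.03, -0.02, -0.01 and -0.003.

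**Figure D2:**
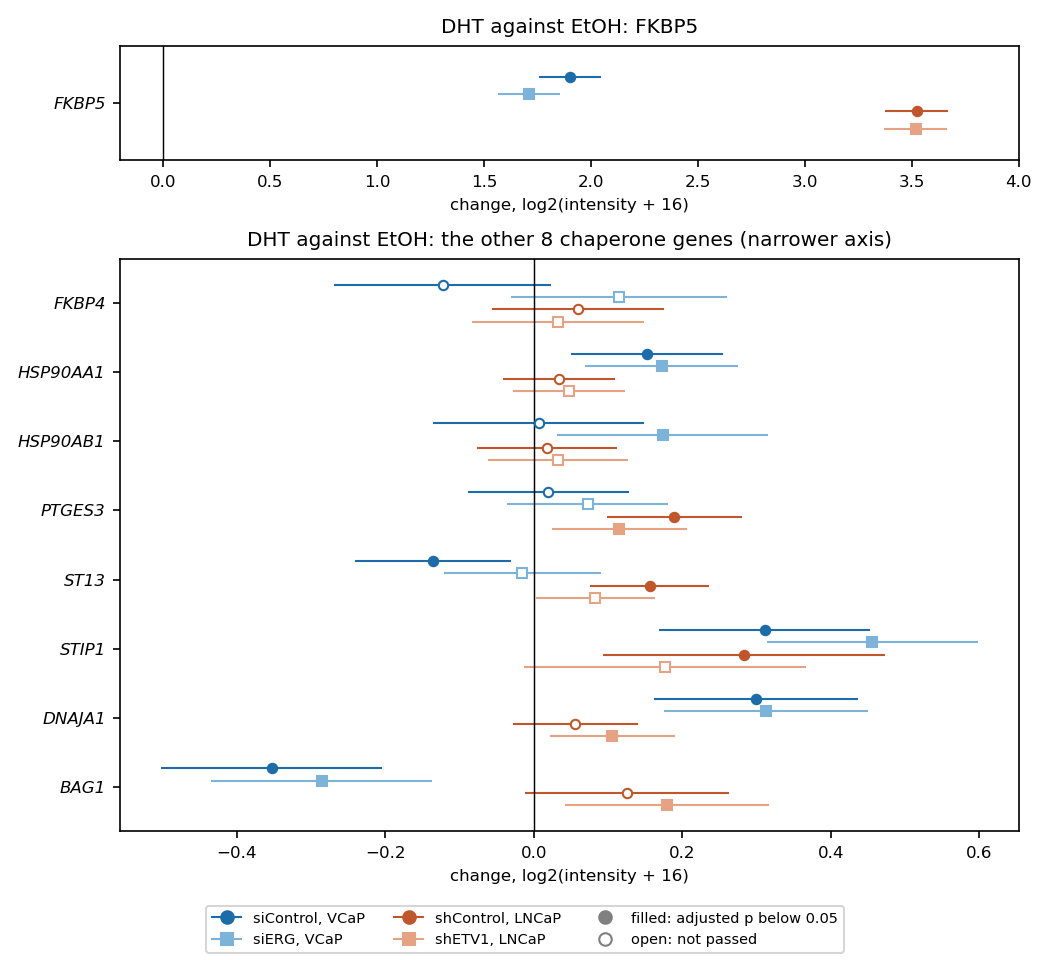
Change with DHT against EtOH on the log2(intensity + 16) scale, with 95% confidence intervals from limma, for FKBP5 (upper panel) and the other 8 genes (lower panel, with a narrower axis), n = 3 arrays per group. Filled symbols have an adjusted p below 0.05. FKBP5 lies between 1.71 and 3.52, and all other genes lie between -0.35 and 0.46.

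An RNA quality measure also differed between the VCaP groups. The ratio of the 3′ to the 5′ GAPDH control probe sets was 1.09 ± 0.02 (SD, n = 3) in siERG with EtOH and 1.03 ± 0.01 with DHT, against 1.05 ± 0.01 and 1.07 ± 0.01 in siControl (exact permutation tests, two-sided p = 0.1 for DHT against EtOH with either siRNA and for siERG against siControl in either condition, the smallest that 3 against 3 arrays allow). With this ratio as a covariate, the count of called genes in siERG with DHT went from 6 to 1, FKBP5. The changes of the other 5 were then -0.43 (adjusted p = 0.0559) for BAG1, 0.25 (0.170) for STIP1, 0.16 (0.316) for HSP90AA1, 0.17 (0.393) for DNAJA1 and 0.02 (0.949) for HSP90AB1. The change of BAG1 was thus larger than the -0.29 without the covariate and that of HSP90AA1 near its 0.17, while those of STIP1, DNAJA1 and HSP90AB1 were smaller than their 0.46, 0.31 and 0.17. In siERG the ratio was 1.07 to 1.11 with EtOH and 1.02 to 1.04 with DHT, without overlap. This fit therefore cannot cleanly separate the ratio from the treatment. The part of RNA quality in these results was not tested further. In LNCaP shETV1 the count of 4 fell to 1 or 2 when any 1 of the 6 arrays was left out, and to 1, FKBP5, under 6 other settings.

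HSP90AA1, the inducible Hsp90, rose slightly in VCaP and was not called in LNCaP. Its probe set 214328_s_at read 10424, 10286 and 9774 in siControl with EtOH and 11536, 11268 and 11072 with DHT, a rise of 0.15 ± 0.05 (adjusted p = 0.0205), and the arrays did not overlap. In siERG it read 9952, 10266 and 10073 with EtOH and 11926, 11411 and 10822 with DHT, a rise of 0.17 ± 0.05 (adjusted p = 0.0113). All 4 probe sets of HSP90AA1 rose in VCaP with either siRNA, by 0.15 to 0.29, in a fit of single probe sets. In LNCaP the changes were 0.03 ± 0.03 with shControl (adjusted p = 0.469) and 0.05 ± 0.03 with shETV1 (0.312). The difference between the lines, LNCaP minus VCaP, was -0.12 ± 0.05 (adjusted p = 0.0995) for this probe set. It passed for 2 of the other 3, 211968_s_at (-0.26 ± 0.07, adjusted p = 0.0122) and 211969_at (-0.21 ± 0.05, 5.40e-03), and for the mean of all 4 (-0.18, 8.85e-03). The siControl rise lost its call without siControl DHT A (0.14, adjusted p = 0.0716) or EtOH C (0.12, 0.0768), and the siERG rise in a fit of those groups alone (0.17, 0.0516). Of 12 other settings, the siControl rise lost its call under 1 and the siERG rise under 2.

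HSP90AB1, the constitutive Hsp90, changed little. With DHT it changed by 0.01 ± 0.06 in VCaP siControl, 0.02 ± 0.04 in LNCaP shControl and 0.03 ± 0.04 in LNCaP shETV1, with adjusted p of 0.600 to 0.948. In VCaP siERG it read 8404, 8503 and 7981 with EtOH and 10052, 9660 and 8432 with DHT. DHT array C lay within the EtOH range, and the rise of 0.17 ± 0.06 (adjusted p = 0.0474) lost its call when any 1 of 5 of the 6 arrays was left out (0.12 to 0.19, adjusted p up to 0.166). Without the sixth, siERG DHT C, it was 0.25 (adjusted p = 2.28e-03). Of 12 other settings, 3 lost the call.

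PTGES3, which stabilises the closed Hsp90 complex, rose in LNCaP. Its only probe set read 8227, 8496 and 7705 in shControl with EtOH and 9253, 9210 and 9376 with DHT, a rise of 0.19 ± 0.04 (adjusted p = 3.34e-03). In shETV1 the change was 0.12 ± 0.04 (adjusted p = 0.0470), a call lost without any 1 of the 6 arrays (adjusted p 0.0674 to 0.125). In VCaP the changes were 0.02 ± 0.05 and 0.07 ± 0.05 (adjusted p = 0.778 and 0.261). All LNCaP DHT arrays were above the EtOH arrays of the same reagent, and the VCaP arrays overlapped.

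FKBP4, the immunophilin that shares a docking site with FKBP5, was not called with DHT in any of the 4 comparisons. Its brightest probe set read 2552, 2515 and 2346 in VCaP siControl with EtOH and 2208, 2224 and 2372 with DHT, a change of -0.12 ± 0.07 (adjusted p = 0.156). In VCaP siERG it changed by 0.12 ± 0.07 (adjusted p = 0.183). In LNCaP the changes were 0.06 ± 0.05 with shControl and 0.03 ± 0.05 with shETV1 (adjusted p = 0.404 and 0.673). The 95% intervals of the 4 changes ran from -0.27 to 0.26 in all, against a lower bound of 1.57 for FKBP5. The siERG change passed without siERG DHT C (0.18, adjusted p = 0.0305) and with arrays centred on their median (0.19, 0.0371), and its second probe set, 200894_s_at, rose there by 0.18 ± 0.06 (adjusted p = 0.0345 in the probe set fit). A further pair of FKBP4 probe sets was dim, 1 tested in VCaP alone and 1 in neither line.

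STIP1, the adaptor that joins Hsp70 to Hsp90, rose in VCaP with either siRNA and in LNCaP shControl. In VCaP siControl it read 1671, 1625 and 1578 with EtOH and 2107, 1869 and 2088 with DHT, a rise of 0.31 ± 0.06 (adjusted p = 2.39e-03). In VCaP siERG it read 1680, 1717 and 1530 with EtOH and 2392, 2220 and 2162 with DHT, a rise of 0.46 ± 0.06 (adjusted p = 1.85e-04). In LNCaP shControl it read 1007, 1138 and 906 with EtOH and 1350, 1228 and 1139 with DHT, a rise of 0.28 ± 0.09 (adjusted p = 0.0215). The lowest DHT array of LNCaP shControl was only just above the highest EtOH array. That call was lost without shControl DHT A (0.22, adjusted p = 0.0844), EtOH A (0.28, 0.0545) or EtOH C (0.20, 0.0823), and with the 3′ to 5′ ratio of ACTB as a covariate the rise was 0.14 (0.186). Of 11 other settings, 3 lost the call, the ACTB covariate among them. In shETV1 the change was 0.18 ± 0.09 (adjusted p = 0.136), and the second STIP1 probe set rose in all 4 comparisons by 0.20 to 0.36.

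DNAJA1, the J-domain partner of Hsp70 in receptor folding, rose in VCaP. It read 5128, 5319 and 5024 in siControl with EtOH and 6568, 6101 and 6383 with DHT, a rise of 0.30 ± 0.06 (adjusted p = 2.45e-03). In siERG it read 5333, 5256 and 4991 with EtOH and 6564, 6948 and 5882 with DHT, a rise of 0.31 ± 0.06 (adjusted p = 1.90e-03). The DHT arrays lay above all EtOH arrays with either siRNA, and its second probe set rose by 0.29 and 0.24. In LNCaP shControl the change was 0.06 ± 0.04 (adjusted p = 0.277). In LNCaP shETV1 it was 0.11 ± 0.04 (adjusted p = 0.0495), a call lost without any 1 array other than shETV1 EtOH B (0.09 to 0.11, adjusted p up to 0.160), and there the second probe set changed by 0.03 ± 0.04.

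BAG1, the nucleotide exchange factor, fell in VCaP and did not fall in LNCaP. In VCaP siControl it read 1834, 1867 and 1886 with EtOH and 1448, 1392 and 1526 with DHT, a change of -0.35 ± 0.07 (adjusted p = 1.45e-03). In siERG it read 1710, 1691 and 1638 with EtOH and 1515, 1390 and 1234 with DHT, a change of -0.29 ± 0.07 (adjusted p = 5.33e-03). No DHT array of VCaP reached the EtOH arrays of the same siRNA. In LNCaP shControl the arrays read 1416, 1511 and 1311 with EtOH and 1564, 1504 and 1554 with DHT and overlapped, a change of 0.13 ± 0.06 (adjusted p = 0.133). In LNCaP shETV1 the change was 0.18 ± 0.06 (adjusted p = 0.0416), lost without any 1 array other than shETV1 DHT B (0.14 to 0.20, adjusted p up to 0.144). All 3 BAG1 probe sets were negative with DHT in VCaP, from -0.35 to -0.23, and 5 of these 6 changes passed.

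ST13 (Hip) rose in LNCaP shControl, where it read 6088, 6254 and 5967 with EtOH and 6844, 6868 and 6687 with DHT, by 0.16 ± 0.04 (adjusted p = 5.20e-03). Under quantile normalization this rise was 0.08 (adjusted p = 0.0852). In shETV1 the change was 0.08 ± 0.04 (adjusted p = 0.101), while both other ST13 probe sets rose there by 0.15 and 0.17. In VCaP siControl it read 6110, 6116 and 5905 with EtOH and 5646, 5365 and 5491 with DHT, a change of -0.14 ± 0.05 (adjusted p = 0.0382), and in siERG it changed by -0.02 ± 0.05 (0.818). The VCaP fall was not shared by the other ST13 probe sets, which changed by 0.06 ± 0.06 and -0.04 ± 0.05. It was lost when all 3 were averaged (-0.04, adjusted p = 0.471), and without siControl DHT B (-0.12, 0.115), DHT C (-0.13, 0.0876), EtOH A (-0.13, 0.102) or EtOH B (-0.13, 0.101). Of 11 other settings, 5 lost the call, the average among them.

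The 4 probe sets that list HSPA8 together with the SNORD14 genes were not called with DHT in VCaP siControl (0.06 to 0.11) or in either LNCaP comparison (-0.02 to 0.05). In VCaP siERG 3 of the 4 rose, beside 38.5% of all probe sets called, and the 4 changes were 0.12 to 0.19. After siERG the 4 changed by -0.01 to 0.05 with EtOH and 0.06 to 0.13 with DHT, and after shETV1 by -0.05 to 0.03 and -0.01 to 0.02. The DHT response differed after knockdown by 0.01 to 0.14 in VCaP and -0.01 to 0.05 in LNCaP, and between control cells (LNCaP minus VCaP) by -0.08 to -0.06. In each of these comparisons 0 of the 4 were called.

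**Figure D3:**
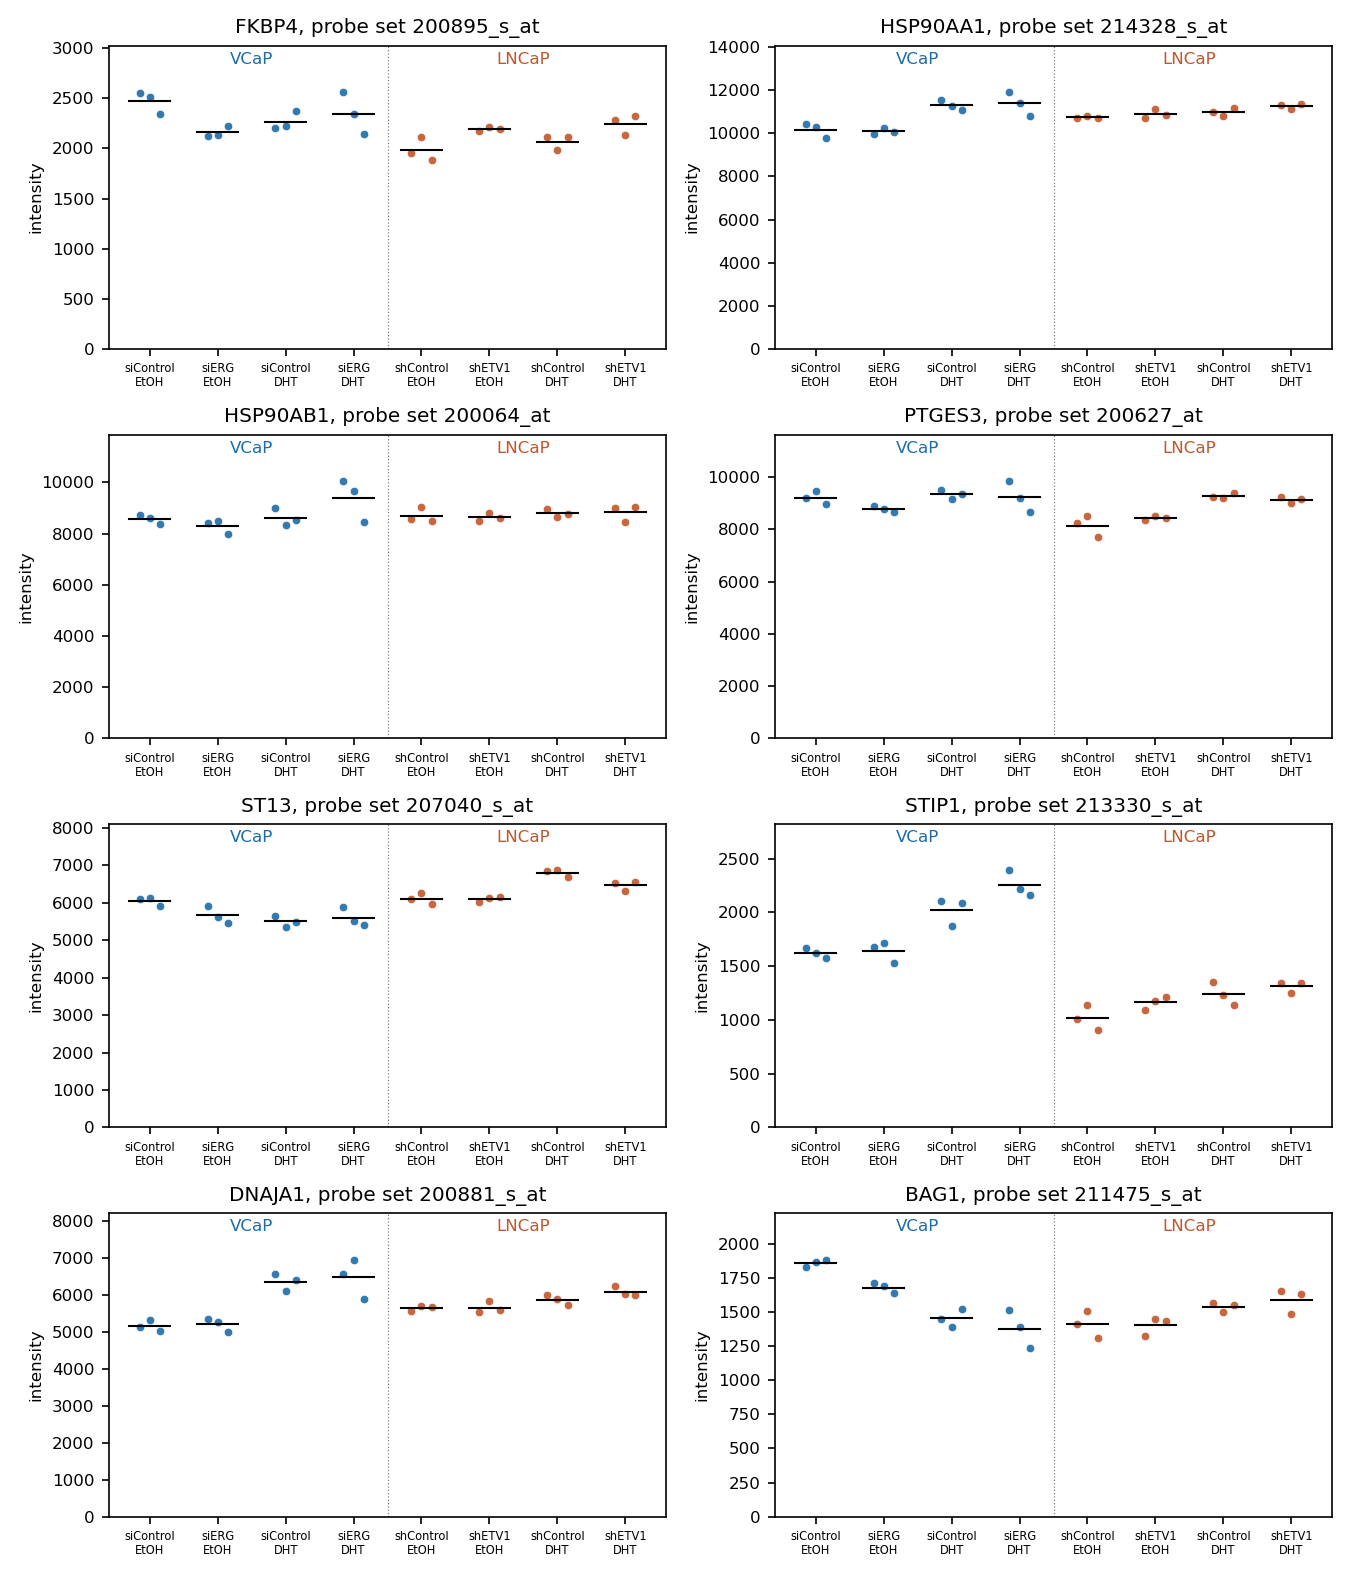
Intensity (linear axis from 0) of the brightest probe set of the 8 genes other than FKBP5 on each of the 24 arrays, by group, with VCaP in blue and LNCaP in orange. Points are arrays and lines are group means of 3 arrays. DNAJA1 and STIP1 are higher and BAG1 lower with DHT in VCaP, and the EtOH and DHT arrays of FKBP4 overlap.

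Knockdown of ERG or ETV1 called 0 of the 9 genes in any of the 4 comparisons. These comparisons share their control arrays with the DHT comparisons above. In siERG against siControl with EtOH, 11.2% of all genes tested were called and 2 of the 9 had an unadjusted p below 0.05. With DHT, 8.97% of all genes were called and 1 of the 9 had such a p. In shETV1 against shControl the shares were 4.20% with EtOH and 5.19% with DHT, and 3 and 2 of the 9 had an unadjusted p below 0.05. The shares of all genes are at an adjusted p below 0.05, a stricter threshold. The unadjusted counts therefore cannot be set against them. Knockdown and control arrays did not overlap for 4 and 1 of the 9 genes after siERG with EtOH and DHT, beside 35.1% and 24.9% of all genes, and for 1 and 4 after shETV1, beside 24.1% and 26.5%.

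FKBP5 came nearest to a call. With EtOH in VCaP all 3 siERG arrays (1752, 2066 and 1894) lay above all 3 siControl arrays (1693, 1653 and 1543), and the change was 0.22 ± 0.07 (adjusted p = 0.0543). Its dimmest probe set, 204560_at, read 100, 120 and 109 after siERG against 82.3, 80.9 and 71.8 and rose by 0.41 ± 0.07 (adjusted p = 5.18e-03 in the probe set fit, where it was the 1 called of the 24 probe sets of the 9 genes, against 9.19% of all). The mean of the 3 probe sets rose by 0.29 (adjusted p = 0.0123), and the change of 224840_at passed without siERG EtOH A (0.28, adjusted p = 0.0298). With DHT the siERG change was 0.03 ± 0.07 (adjusted p = 0.840) and the arrays overlapped.

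After shETV1 the mean FKBP5 level was lower with EtOH and with DHT, and neither change passed. The change was -0.17 ± 0.07 with EtOH (adjusted p = 0.222) and -0.17 ± 0.07 with DHT (adjusted p = 0.188), where all 3 shETV1 arrays were below the shControl arrays. Probe set 224856_at read 3983, 3992 and 3837 in shETV1 with DHT against 4922, 4851 and 4816, a change of -0.30 ± 0.05 (adjusted p = 6.23e-03 in the probe set fit, where it was the 1 called of the 23 probe sets of the 9 genes, against 4.45% of all). The mean of the 3 probe sets passed after shETV1 in both conditions, at -0.21 with EtOH (adjusted p = 0.0474) and -0.24 with DHT (0.0186). Without shControl EtOH C the EtOH change of 224840_at was -0.25 (adjusted p = 0.0258).

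The remaining knockdown values were small. FKBP4 changed by -0.19 ± 0.07 after siERG with EtOH (adjusted p = 0.0903) and by 0.14 ± 0.05 and 0.12 ± 0.05 after shETV1 with EtOH and DHT (adjusted p = 0.170 and 0.239), with arrays that did not overlap in these 3 cases. The siERG change passed in 1 fit of all 24 arrays (-0.19, adjusted p = 0.0381) and with arrays centred on their median (-0.24, 0.0356). STIP1 changed by 0.16 ± 0.06 after siERG with DHT (adjusted p = 0.167) and by 0.20 ± 0.09 after shETV1 with EtOH (0.262). BAG1 changed by -0.15 ± 0.07 after siERG with EtOH (adjusted p = 0.198). HSP90AB1 changed by 0.12 ± 0.06 after siERG with DHT (adjusted p = 0.310) and passed without siERG DHT C (0.19, 0.0310). The HSP90AA1, PTGES3, ST13 and DNAJA1 changes lay between -0.09 and 0.05 in all 4 comparisons.

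**Figure D4:**
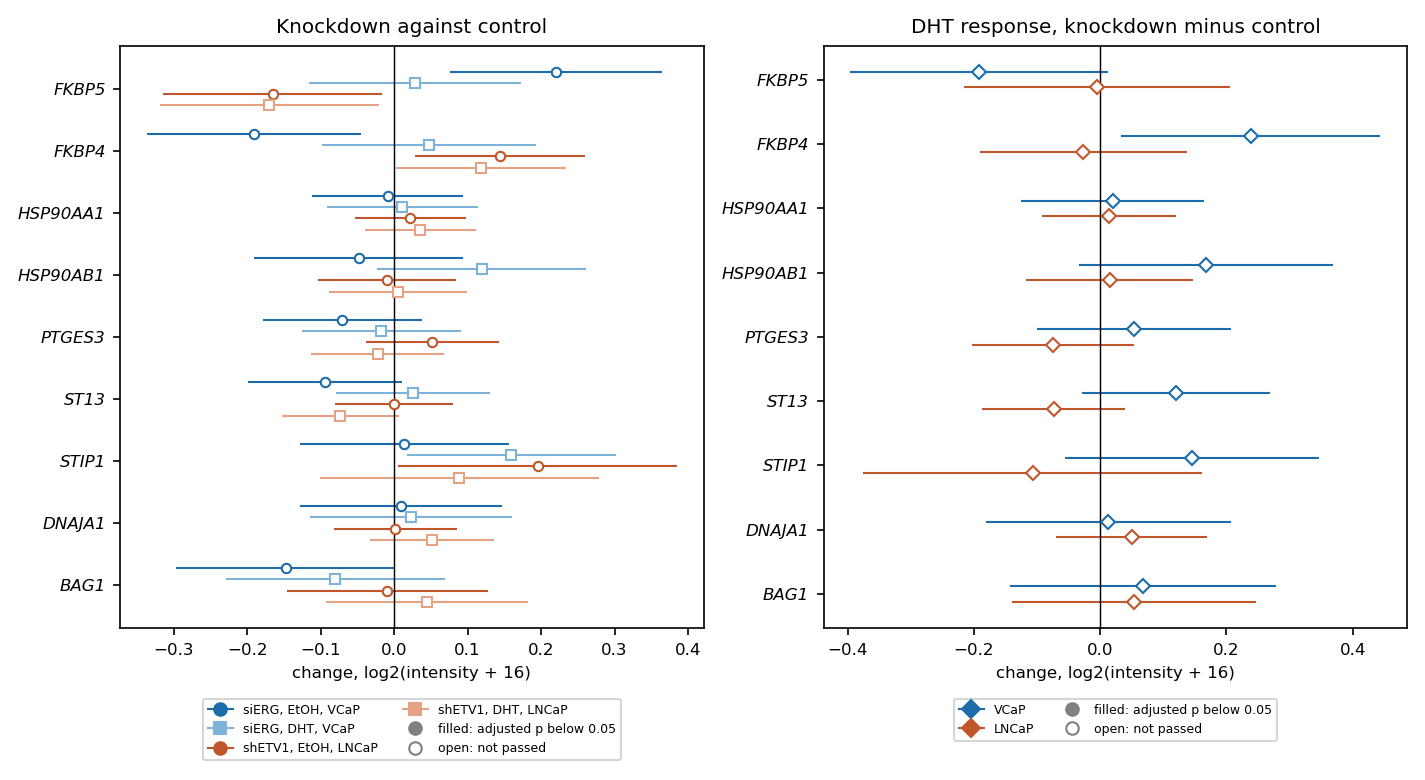
Left, change after knockdown against control on the log2(intensity + 16) scale. Right, how far the DHT response differed in knockdown cells from that in control cells, both with 95% confidence intervals from limma, n = 3 arrays per group. All symbols are open, since no change passed an adjusted p of 0.05, and the FKBP5 value after siERG with EtOH, 0.22, is the highest on the left.

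Whether a knockdown altered the DHT response was tested as an interaction, with a positive value where the response was larger after knockdown. None of the 9 genes was called in VCaP (0 of 9, with 0.288% of all genes called) or in LNCaP (0 of 9, with 0.101% of all genes called). At an unadjusted p below 0.05, a looser threshold than that of these shares, there was 1 of the 9 in VCaP and 0 of the 9 in LNCaP. For FKBP5 the difference was -0.19 ± 0.09 in VCaP (95% interval -0.40 to 0.01, adjusted p = 0.484) and -0.004 ± 0.095 in LNCaP (95% interval -0.21 to 0.21, adjusted p = 0.998). Its 3 probe sets gave -0.36 to -0.19 in VCaP (lowest adjusted p = 0.281 in the probe set fit) and -0.16 to 0.06 in LNCaP (0.616), with 0 called. The 1 unadjusted p below 0.05 was that of FKBP4 in VCaP, where the difference was 0.24 ± 0.09 (95% interval 0.03 to 0.44, adjusted p = 0.388). The differences of HSP90AB1 and STIP1 in VCaP had intervals of -0.03 to 0.37 and -0.06 to 0.35.

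The DHT response itself differed between the lines for 5 of the 9 genes, compared in control cells as LNCaP minus VCaP, where 31.9% of all 12305 genes tested in both lines were called, 17.6% with a higher and 14.3% with a lower value in LNCaP. The FKBP5 response was larger in LNCaP by 1.62 ± 0.09 (adjusted p = 8.44e-11), and its 3 probe sets gave differences of 1.28 to 1.62, all called, beside 27.8% of all probe sets. Its mean intensity went from 900.5 ± 97.8 to 10478 ± 331 (SD, n = 3) in LNCaP shControl and from 1630 ± 77.6 to 6128 ± 191 in VCaP siControl. BAG1 differed by 0.48 ± 0.09 (adjusted p = 4.45e-04), with a fall in VCaP and no called change in LNCaP shControl. ST13 differed by 0.29 ± 0.06 (adjusted p = 4.26e-04). Of its 3 probe sets 1 was called (differences of 0.11 to 0.29, adjusted p up to 0.274 in the probe set fit). DNAJA1 differed by -0.24 ± 0.07 (adjusted p = 0.0124), with the larger rise in VCaP. PTGES3 differed by 0.17 ± 0.06 (adjusted p = 0.0385), a call lost without any 1 of 9 of the 12 arrays (0.13 to 0.18, adjusted p up to 0.111) and under 4 of 10 other settings, with the ACTB ratio (0.17, 0.0680) or the GAPDH ratio (0.14, 0.150) as a covariate, without the intensity filter (0.17, 0.0805) and under quantile normalization (0.05, 0.393). The arrays whose loss did not end the call were LNCaP shControl EtOH B, VCaP siControl DHT A and EtOH C. HSP90AA1 was not called by its brightest probe set, but 2 of its 4 probe sets were (differences of -0.26 to -0.12), and it passed under 4 of 10 other settings. FKBP4 had 0 of 2 probe sets called (0.18 for each) and passed without 1 of the 12 arrays. STIP1 differed by -0.03 ± 0.11 (95% interval -0.26 to 0.20), and HSP90AB1 by 0.01 ± 0.08 (95% interval -0.15 to 0.17).

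Within each line the other genes followed FKBP5 to different degrees over the 12 arrays, given here as a description. In VCaP the correlation with FKBP5 was 0.935 for DNAJA1, 0.920 for STIP1, 0.918 for HSP90AA1 and -0.889 for BAG1. In LNCaP it was 0.904 for PTGES3, 0.886 for ST13, 0.776 for DNAJA1 and 0.774 for BAG1. In VCaP ST13 had -0.621 and PTGES3 0.398, while in LNCaP STIP1 had 0.686 and HSP90AA1 0.651. HSP90AB1 had 0.512 in VCaP and 0.356 in LNCaP. FKBP4 had -0.06 in VCaP and 0.24 in LNCaP.

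The rest of the Hsp70 system was followed as a list of further Hsp70 and Hsp110 proteins, J-domain proteins, BAG proteins and the exchange factor HSPBP1. In VCaP siControl 11 of 16 genes tested rose and 2 fell, with a median change of 0.25 against -0.03 over all genes, of which 19.6% rose and 25.4% fell. DNAJA4, a J-domain protein related to DNAJA1, rose by 0.99 ± 0.07 (adjusted p = 6.95e-07), and HSPH1, an Hsp110 exchange factor, by 0.72 ± 0.06 (4.62e-06). BAG2, an inhibitor of the ubiquitin ligase CHIP, changed by -0.61 ± 0.07 (adjusted p = 3.77e-05), and BAG4 by -0.28 ± 0.05 (1.01e-03). In siERG 10 of 16 rose and 3 fell, beside 20.1% and 25.2% of all genes. In LNCaP shControl 6 of 15 rose and 4 fell, beside 18.6% and 22.3% of all genes, with a median change of 0.10, led by HSPA2, a testis-enriched Hsp70, at 1.60 ± 0.12 (adjusted p = 1.60e-06). HSPA4L, another Hsp110, changed there by -1.08 ± 0.06 (adjusted p = 1.27e-07) and DNAJB6 by -0.63 ± 0.04 (5.43e-07). BAG2 rose in LNCaP shControl by 0.31 ± 0.08 (adjusted p = 9.61e-03), and in shETV1 7 of 15 rose and 4 fell, beside 18.8% and 19.0% of all genes. The DHT response of control cells was compared gene by gene as LNCaP minus VCaP. Of the 15 genes 2 had a higher and 8 a lower value in LNCaP, beside 17.6% and 14.3% of all genes. The median was -0.18 against 0.01 over all genes. BAG2 differed by 0.92 ± 0.11 (adjusted p = 1.53e-06) and DNAJB6 by -0.72 ± 0.06 (9.86e-09). The list as a set was not tested between the lines.

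Of the other FKBP family members, 4 of 12 rose and 4 fell with DHT in VCaP siControl and the same numbers in siERG, beside 19.6% risen and 25.4% fallen of all genes in siControl and 20.1% and 25.2% in siERG. In siControl FKBP11, an FKBP of the secretory pathway, rose by 1.07 ± 0.06 (adjusted p = 1.19e-07) and FKBP1B, a calcium channel partner, by 0.59 ± 0.04 (1.03e-06), while FKBP7 changed by -0.68 ± 0.07 (2.12e-05). In LNCaP 3 of 12 rose and 1 fell with either reagent, beside 18.6% and 22.3% of all genes in shControl and 18.8% and 19.0% in shETV1. FKBP1B rose there by 0.69 ± 0.09 in shControl (adjusted p = 9.31e-05), and FKBP9 changed by -0.49 ± 0.05 (1.79e-05).

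Of the other Hsp90 co-chaperones, a list that shares FKBP8 and FKBPL with the FKBP list, 2 of 17 rose with DHT and 3 fell in VCaP siControl, 5 rose and 1 fell in siERG, 2 rose and 2 fell in LNCaP shControl, and 1 rose and 2 fell in shETV1, beside 45.0%, 45.3%, 40.8% and 37.9% of all genes called either way. NUDC rose in VCaP siControl by 0.33 ± 0.04 (adjusted p = 4.59e-05) and in LNCaP shControl by 0.12 ± 0.04 (0.0442). CDC37, which brings kinases to Hsp90, rose in LNCaP shControl by 0.21 ± 0.06 (adjusted p = 0.0212). FNIP1, an inhibitor of the Hsp90 ATPase, changed there by -0.37 ± 0.04 (adjusted p = 3.03e-05). A further list held 11 heat shock and chaperone genes outside this cycle, HSF1, CCT2 and CCT5 among them. Of these, 2 rose and 3 fell in VCaP siControl, and 3 rose and 1 fell in siERG. In LNCaP 2 rose and 2 fell in shControl, and 3 rose and 2 fell in shETV1, beside the same shares. HSPA9, the mitochondrial Hsp70, rose in VCaP siControl by 0.35 ± 0.05 (adjusted p = 4.18e-04) and in LNCaP shControl by 0.26 ± 0.07 (0.0146). HSPB8, a small heat shock protein, changed by -0.33 ± 0.06 (adjusted p = 1.04e-03) and -0.75 ± 0.08 (1.60e-05).

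After knockdown some genes of these lists were called. HSPB8 rose after siERG by 0.68 ± 0.06 with EtOH (adjusted p = 9.25e-05) and 0.29 ± 0.06 with DHT (0.0141), and after shETV1 it changed by -0.66 ± 0.08 (6.56e-04) and -0.51 ± 0.08 (3.78e-03). CHORDC1 (Morgana), an Hsp90 co-chaperone, rose after siERG with EtOH by 0.19 ± 0.05 (adjusted p = 0.0394), changed by 0.02 ± 0.05 after siERG with DHT (0.822), and rose after shETV1 by 0.26 ± 0.05 and 0.31 ± 0.05 with EtOH and DHT (0.0186 and 6.72e-03). BAG2 rose after siERG by 0.43 ± 0.07 and 0.35 ± 0.07 (adjusted p = 3.19e-03 and 9.98e-03). FKBP1B changed by -0.26 ± 0.04 and -0.22 ± 0.04 after siERG (3.16e-03 and 7.44e-03) and by -0.40 ± 0.09 after shETV1 with DHT (0.0289). In the Hsp70 list 1 of 16 genes was called after siERG with EtOH and 1 with DHT, and 0 of 15 and 1 of 15 after shETV1. In the FKBP list it was 2 and 3 of 12 after siERG and 0 and 1 of 12 after shETV1, and among the Hsp90 co-chaperones 1 and 0 of 17 and then 1 and 1 of 17. In the list of heat shock and chaperone genes it was 2 and 2 of 11 after siERG and 1 and 1 of 11 after shETV1. Of all genes 11.2% and 8.97% were called after siERG and 4.20% and 5.19% after shETV1, so that with lists this short the counts do not stand apart from those shares. Differences between the lines in these knockdown changes were not tested.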

How the data were processed

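The authors' deposited intensities of 24 arrays, 54675 probe sets each, were used as deposited. The scaling step is not stated in these sources. The deposited intensities were turned into log2(intensity + 16). Of the probe sets, 41097 list 1 gene, 1801 several and 11777 none, and each gene was read from its probe set brightest over all arrays. Genes above the array median on at least 3 of 12 arrays of a line were tested with limma 3.58.1 in R 4.3.3, in 1 fit per line with 4 groups, and in 1 fit of 24 arrays between lines. Adjusted p-values are Benjamini-Hochberg over all genes tested, two-sided, called below 0.05. Intensities hold no counts, so the number of arrays (3 per group) limits the precision. The labels call the LNCaP control both shControl and siControl. The members and lists were chosen with earlier results of these data known. Genes outside the 10 are up to 2 risen and 2 fallen per list and comparison with the smallest adjusted p, also given in other comparisons, and the 5 most like FKBP5. Promoters are RefSeq windows of GRCh38.p14. The fit was tested on simulated data.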

Additional observations from a re-analysis of the deposited data

Results flagged for a closer look

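For 5 of the 9 genes the DHT response of control cells differed between LNCaP and VCaP by a direct test in 1 fit of all 24 arrays, given as LNCaP minus VCaP on the log2 scale. The differences were 1.62 for FKBP5, 0.48 for BAG1, 0.29 for ST13, 0.17 for PTGES3 and -0.24 for DNAJA1, where 31.9% of all genes were called. The PTGES3 call was lost without any 1 of 9 of the 12 arrays and under 4 of 10 other settings. For ST13 1 of 3 probe sets was called (differences of 0.11 to 0.29). HSP90AA1, not among the 5, had 2 of 4 probe sets called (differences of -0.26 to -0.12) and passed under 4 of 10 other settings. The lines also differ in the kind of control reagent, siRNA or shRNA, and in the deposited values. Each LNCaP array held 605 to 698 values of exactly 1, and each VCaP array 6 to 13. Line, reagent and array processing thus cannot be told apart here.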

How the results depend on the processing

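No called change turned its sign under the 12 other settings or with any array left out. The DHT rise of FKBP5 kept its call under each. Under the 12 settings it was 1.87 to 2.61 in VCaP siControl, 1.69 to 2.34 in siERG, 3.46 to 4.06 in LNCaP shControl and 3.49 to 4.03 in shETV1, and with single arrays left out 1.86 to 1.93, 1.65 to 1.77, 3.44 to 3.59 and 3.50 to 3.53. The FKBP5 change after siERG with EtOH passed in 1 fit of all 24 arrays (0.22, adjusted p = 0.0339), with the ACTB ratio as a covariate (0.26, 0.0245), with the mean of probe sets (0.29), with quantile normalization (0.24) and with a trended variance (0.22, 0.0303), and with single arrays left out it was 0.16 to 0.28. After shETV1 the mean of probe sets passed with EtOH (-0.21) and DHT (-0.24), and with single arrays left out the EtOH change was -0.25 to -0.10. The count of called genes after siERG with EtOH, 0, became 2 in 1 fit of all arrays and 1 with the ACTB ratio, centred arrays, the mean of probe sets, quantile normalization or a trended variance, and 0 to 1 with arrays left out, as it did after siERG with DHT and after shETV1 with EtOH. With the mean of probe sets it became 1 after shETV1 with EtOH and 1 with DHT. The DHT count in LNCaP shControl, 4, became 2 without probe sets ending in _x_at or _s_at, since ST13 and STIP1 have no others. In shETV1, 4 became 1 without them, with the GAPDH ratio, without the intensity filter, in a fit of only the 2 groups and with quantile normalization, and 1 to 2 with arrays left out. In VCaP siERG, 6 became 1 with the GAPDH ratio. The cause was not tested. The replicate letters did not pair the arrays (correlations of same-letter deviations -0.12 to 0.11 in VCaP and -0.22 to 0.13 in LNCaP), and with the letter as a replicate block the shETV1 DHT count was 1 and no other count changed, the FKBP5 rise in VCaP siControl staying at 1.90. With 3 arrays per group, changes as small as those of most of the 9 genes are at the limit of what these data show.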
